A study of Mus musculus with 23 samples.

Results

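The mRNAs of 10 transcription factors of hippocampal neurons, Mef2a, Mef2c, Mef2d, Neurod1, Neurod2, Neurod6, Bcl11a, Zbtb20, Tcf4 and Prox1, were followed from hippocampal synaptosomes to neurites grown in microfluidic chambers. They are 10 of the 48709 gene identifiers counted in total RNA and 10 of the 22018 that count as mRNAs here, and all 10 had reads in all 3 groups of libraries. The genes were chosen by name, and Mef2c was included because its level in the chambers is high. Its level and its difference between synaptosomes and chambers are therefore given as a description, without a test.

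The groups were 3 pools of synaptosomes, 8 control chamber libraries and 3 chamber libraries treated with KCl. Synaptosomes, which are nerve terminals that reseal when tissue is homogenized, came from pooled hippocampi of male C57B/6J mice aged 3 months. The chamber libraries came from hippocampal neurons of CD1 mouse embryos at 14 days in vitro, and the perfusion channel, a slit that neurites cross and cell bodies are meant not to enter, was cut out and 2 chambers were pooled for each library. KCl, which depolarizes neurons, was added at 50 mM for 2 h, and the control chambers were from the same kind of culture without it. Synaptosomes and chambers also differ in strain, age, preparation and library kit, and these cannot be told apart from the difference between the compartments. Libraries are named here by the number or word of their label: synaptosome pools 1 to 3, controls C1, C2, C3, C9, C11, Ctrl3, Ctrl4 and sc3, and the KCl libraries KCL1, KCL1a and KCL4. Where nothing says that libraries came from separate cultures, a p-value measures the spread between these libraries, which may be technical.

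Libraries held 14714196 to 16667516 counts in synaptosomes, 722529 (Ctrl4) to 48281227 (sc3) in control chambers and 2632490 to 80883504 in KCl chambers. mRNAs took 11.0% to 12.1% of the counts in synaptosomes, 70.0% to 97.3% in controls and 68.3% to 75.0% in KCl chambers, so levels scaled to a total of 1000000 counts (CPM) and levels scaled to as many mRNA counts (CPM of mRNAs) stand in a different relation in the 2 preparations. Nuclear noncoding RNAs, a list of 10 led in chambers by Malat1 and Meg3, took 0.00488% to 0.00579% of counts in synaptosomes, 0.456% to 4.37% in control chambers and 1.40% to 2.25% in KCl chambers. In synaptosomes Malat1, Snhg14 and Rian led the list, at means of 18.7, 13.6 and 12.6 CPM, and Meg3 had 3.76 CPM. Of the 10, 1 had no count in any library. Olfactory, vomeronasal and taste receptor genes, 1668 in all, took 0.000108% to 0.000190% of counts in synaptosomes. Their share was 0.00646% (sc3) to 1.21% (Ctrl4) in control chambers and 0.0615% to 0.476% in KCl chambers. Of 13 dendritic and synaptic mRNAs, 9 reached the study's cutoff (a mean of 50 CPM in synaptosomes and of 100 CPM in chambers) in synaptosomes, 11 in controls and 13 in KCl chambers. The summed level of 12 astrocyte markers was 1752 to 2575 CPM in synaptosomes, 837 to 14974 CPM in controls and 1538 to 2419 CPM in KCl chambers, and the highest value was that of sc3, while the next control had 2338 CPM. In such bulk RNA fewer cells of a type and less RNA per cell cannot be told apart.

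MEF2 proteins bind DNA as dimers through a MADS box and an adjoining MEF2 domain, and in neurons they switch between activation and repression with calcium signals and shape the number of synapses. NEUROD proteins are basic helix-loop-helix factors that drive and maintain glutamatergic neurons, and they bind DNA together with E proteins such as TCF4. BCL11A and ZBTB20 are zinc finger proteins, and PROX1 is a homeodomain protein that marks granule cells of the dentate gyrus. All of them act in the nucleus, and their mRNAs are made there before they reach the cytoplasm.

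The MEF2 and NEUROD genes are paralogs, so the stretches that code for their most alike parts are shown first, to let the similarity of the counted sequences be judged. For MEF2 these are coding bases 1 to 180, which hold the MADS box, from GENCODE vM21 transcripts in mm10, 5′ to 3′, with the 50 positions at which the genes are not all alike in capitals.
Mef2a: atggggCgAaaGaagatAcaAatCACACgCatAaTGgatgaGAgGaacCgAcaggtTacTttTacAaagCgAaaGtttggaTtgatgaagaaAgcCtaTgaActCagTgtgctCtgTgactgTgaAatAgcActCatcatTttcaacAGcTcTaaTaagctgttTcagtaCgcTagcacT
Mef2c: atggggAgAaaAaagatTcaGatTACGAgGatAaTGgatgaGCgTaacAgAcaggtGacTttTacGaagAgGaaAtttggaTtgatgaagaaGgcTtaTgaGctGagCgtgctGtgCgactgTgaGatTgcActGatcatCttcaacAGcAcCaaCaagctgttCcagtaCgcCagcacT
Mef2d: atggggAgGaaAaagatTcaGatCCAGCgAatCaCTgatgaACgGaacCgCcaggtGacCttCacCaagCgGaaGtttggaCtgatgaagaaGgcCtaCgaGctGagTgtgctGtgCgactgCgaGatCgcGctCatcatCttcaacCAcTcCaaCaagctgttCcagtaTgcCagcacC
The Mef2a stretch spans bases 67295453 to 67316845 of chromosome 7 (minus strand), the Mef2c stretch bases 83575677 to 83592903 of chromosome 13 (plus strand) and the Mef2d stretch bases 88155809 to 88156447 of chromosome 3 (plus strand), each over 2 exons. Mef2c matched Mef2a at 82.2% and Mef2d at 82.8% of the positions, and the longest identical run in the whole coding sequences was 17 bases for the former pair and 28 bases for the latter.

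For NEUROD the window of 180 coding bases with the most matches is shown in the same way, with the 53 positions that differ in capitals.
Neurod1: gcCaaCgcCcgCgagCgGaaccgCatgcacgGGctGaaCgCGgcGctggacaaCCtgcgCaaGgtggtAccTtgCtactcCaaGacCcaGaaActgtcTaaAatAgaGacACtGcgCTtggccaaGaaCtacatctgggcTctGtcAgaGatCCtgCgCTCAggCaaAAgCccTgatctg
Neurod2: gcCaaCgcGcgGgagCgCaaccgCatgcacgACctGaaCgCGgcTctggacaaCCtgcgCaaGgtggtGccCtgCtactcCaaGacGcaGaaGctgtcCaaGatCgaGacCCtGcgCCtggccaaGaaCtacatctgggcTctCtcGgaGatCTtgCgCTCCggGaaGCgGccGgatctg
Neurod6: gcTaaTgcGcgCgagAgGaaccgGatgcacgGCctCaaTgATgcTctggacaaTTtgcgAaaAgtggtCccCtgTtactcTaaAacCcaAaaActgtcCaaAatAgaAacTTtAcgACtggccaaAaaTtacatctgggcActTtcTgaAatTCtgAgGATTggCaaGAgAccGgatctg
These are coding bases 316 to 495 of Neurod1 (chromosome 2, 79454543 to 79454722), 379 to 558 of Neurod2 (chromosome 11, 98327779 to 98327958) and 295 to 474 of Neurod6 (chromosome 6, 55679177 to 55679356), all on the minus strand and in 1 exon. Neurod1 and Neurod2 matched at 86.7% of the positions with a longest run of 25 bases, and Neurod6 matched them at 76.1% and 75.0%. No stretch of 50 bases in any transcript of the 10 genes occurred in another of the 10. Of Mef2c, Mef2d, Neurod2, Neurod6, Bcl11a and Prox1, no such stretch occurred in any other gene either. The shares for Neurod1, Mef2a, Tcf4 and Zbtb20 were 5.71%, 1.91%, 0.217% and 0.185%, and those of Neurod1 were shared with its neighbour Cerkl.

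All 10 are protein coding genes, and counts were made over their exons. In mm10, Mef2c (ENSMUSG00000005583) spans bases 83504034 to 83667080 of chromosome 13, Mef2a (ENSMUSG00000030557) bases 67231163 to 67372858 of chromosome 7 and Mef2d (ENSMUSG00000001419) bases 88142372 to 88172086 of chromosome 3. Neurod1 (ENSMUSG00000034701) lies at 79452521 to 79456751 of chromosome 2, Neurod2 (ENSMUSG00000038255) at 98325415 to 98329648 of chromosome 11 and Neurod6 (ENSMUSG00000037984) at 55677822 to 55681263 of chromosome 6. Bcl11a (ENSMUSG00000000861) spans 24078056 to 24174123 of chromosome 11, Zbtb20 (ENSMUSG00000022708) 42875881 to 43642602 of chromosome 16, Prox1 (ENSMUSG00000010175) 190118035 to 190170714 of chromosome 1, and Tcf4 (ENSMUSG00000053477) is on chromosome 18. Mef2c, Neurod2, Neurod6 and Tcf4 share no exon bases with another gene model. Exons of Mef2a overlap those of Lysmd4 by 302 bases, of Mef2d those of 1700113A16Rik by 531, of Neurod1 those of Cerkl by 201, of Bcl11a those of 4930538E20Rik by 316, of Zbtb20 those of Gm9968 by 104 and of Prox1 those of Prox1os by 133, so a few of their reads could belong to the neighbour. These are the largest overlaps of each gene, and Neurod1 also shares 154 exon bases with Gm26755, which had a mean of 13.2 CPM in control chambers, and Zbtb20 shares 83 with Mir568, which had no count.

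In synaptosomes 1 of the 10 mRNAs reached the cutoff, Zbtb20, against 1.54% of all mRNAs with a count. In control chambers Tcf4 and Zbtb20 did of the 9 other than Mef2c (6.54% of all mRNAs), and in KCl chambers these and also Mef2a and Mef2d (7.41% of all mRNAs). Mef2c, chosen for its chamber level, was above the cutoff there as well. Mef2c, Tcf4 and Zbtb20 were above 100 CPM in each of the 11 chamber libraries, while Mef2a was in 1 and Mef2d in 2 of the 3 KCl libraries, and without KCL4 the mean of Mef2a was 74.4 CPM. In CPM of mRNAs, 6 of the 10 reached 50 in synaptosomes (19.4% of all mRNAs), and of the 9 other than Mef2c, 4 reached 100 in control chambers (9.76%) and 5 in KCl chambers (10.8%).

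**Figure D1:**
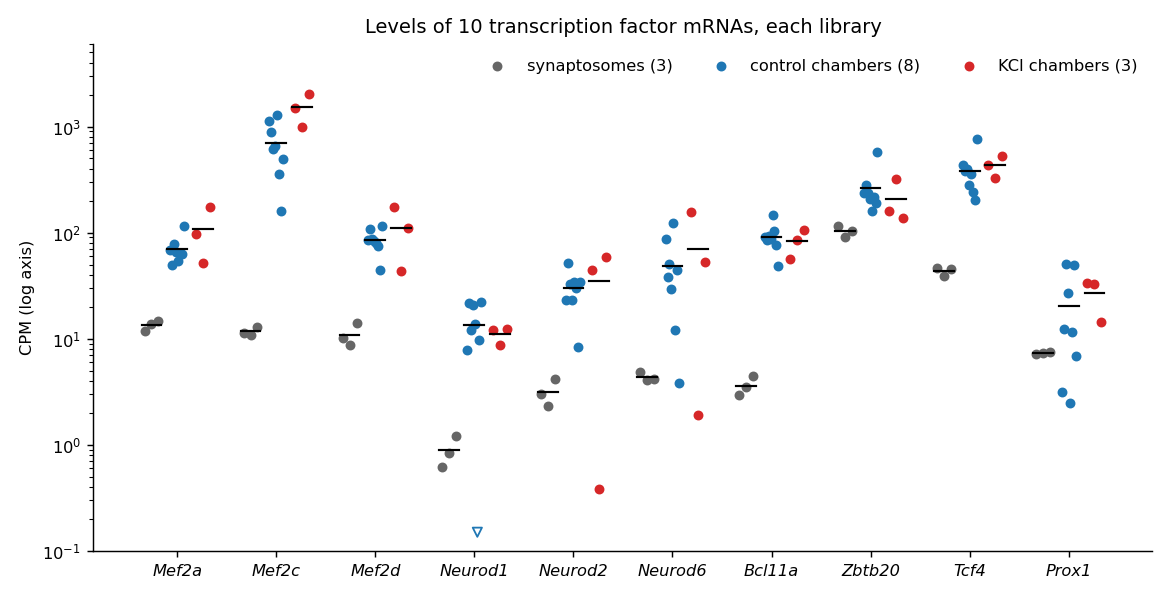
CPM of each of the 10 mRNAs (log axis) in 3 synaptosome pools, 8 control chambers and 3 KCl chambers, with a bar at each group mean and an open triangle for the control library with no Neurod1 count. Mef2c rises from 10.9 to 13 CPM in synaptosomes to 159 to 1273 CPM in control chambers, and all 3 KCl libraries lie within or above the upper part of that range.

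Mef2c, a MEF2 factor of excitatory cortical and hippocampal neurons, had 11.3, 10.9 and 13 CPM in synaptosome pools 1, 2 and 3. In the control chambers it had 159 CPM in Ctrl4, 356 in Ctrl3, 490 in sc3, 616 in C3, 654 in C9, 891 in C2, 1138 in C1 and 1273 in C11. In KCl chambers it had 1497 CPM in KCL1, 996 in KCL1a and 2046 in KCL4. Every chamber library was thus above every synaptosome pool, and the 3 controls labelled by a word were the lowest chambers. In CPM all controls were above all pools for 35.9% of all genes tested. Control chambers had a mean of 697 ± 382 CPM (SD, n = 8), 59.4 times the synaptosome mean of 11.7 ± 1.07 (n = 3). In CPM of mRNAs the means were 916 ± 550 and 103 ± 11.1, which is 8.92 times. Among mRNAs ordered by count within a library, which needs no scaling between libraries, Mef2c stood at places 1381 to 1531 in synaptosomes, 22 to 226 in control chambers and 13 to 25 in KCl chambers.

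The ratio of the mean CPM in control chambers to that in synaptosomes was smaller for its relatives, 5.22 for Mef2a and 7.77 for Mef2d. In CPM of mRNAs these ratios were 0.744 for Mef2a, which was thus higher in synaptosomes, and 1.13 for Mef2d. Mef2a, which is expressed in most neurons, had 11.9, 13.7 and 14.6 CPM in the synaptosome pools and 49.9 to 115 CPM in control chambers (median 65.2), and 97.1, 51.7 and 173 CPM in KCL1, KCL1a and KCL4. Mef2d, a family member abundant in granule neurons, had 10.1, 8.76 and 13.9 CPM in synaptosomes, 44.3 to 116 CPM in controls (median 84.0) and 176, 43.3 and 110 CPM with KCl. For both, chambers and synaptosomes did not overlap in CPM, where 35.9% of all genes tested had all controls above all pools. In CPM of mRNAs chambers and synaptosomes overlapped for both. KCl and control chambers overlapped on both scales. Mef2b, the remaining gene of the family, had no count in any synaptosome or control library.

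The share of Mef2c within the family differed between the preparations, which follows in part from its choice for a high chamber level. Mef2c counts were 0.798 to 0.954 times those of Mef2a in synaptosomes, 2.56 to 23.3 times in control chambers and 11.8 to 19.3 times in KCl chambers. Mef2c gave 31.2% to 34.1% of the counts of the 3 MEF2 members in synaptosomes, 59.9% to 90.4% in controls and 84.6% to 91.3% with KCl. The synaptosome and chamber ranges did not overlap, and the KCl range fell inside that of the controls for the ratio to Mef2a. Mef2d counts were 0.640 to 0.954 times those of Mef2a in synaptosomes and 0.711 to 2.15 times in controls. With KCl they were 0.636 to 1.81 times, so the preparations overlapped in this ratio, which leaves Mef2c out. Such ratios are taken within a library and do not depend on its total.

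The NEUROD genes have short transcripts, and few of the counts in either preparation were theirs. Neurod1, which is needed for the birth of dentate granule cells, had 0.612, 0.840 and 1.22 CPM in synaptosomes and 8.74 to 12.4 CPM in KCl chambers. In control chambers it ranged from 0 in Ctrl3, where the limit that a count of 0 allows is 1.57 CPM, over a median of 12.9 to 22.4 CPM in sc3. Neurod2, a regulator of synapse maturation in pyramidal and granule neurons, had 2.99, 2.34 and 4.14 CPM in synaptosomes and 8.30 to 51.7 CPM in controls (median 31.6).

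Neurod2 had 44.3 CPM in KCL1 and 59.3 CPM in KCL4, but 1 count in KCL1a, which is 0.380 CPM with an exact 95% Poisson interval of 0.00962 to 2.12 for counting error alone. Neurod6, a marker of pyramidal neurons, showed the same split, with 157 CPM in KCL1, 52.7 in KCL4 and 1.90 in KCL1a (5 counts, interval 0.617 to 4.43). Neurod1 did not share it, with 12, 12.4 and 8.74 CPM in KCL1, KCL4 and KCL1a. In the controls Neurod6 varied more than Neurod2, from 3.79 CPM in sc3 (183 counts) over a median of 41.1 to 122 CPM in C11, against 4.89, 4.08 and 4.20 CPM in synaptosomes. Its coefficient of variation over the controls was 81.2%, while Neurod2 had 41.8% and Mef2a 28.7%.

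Tcf4, the E protein partner of such factors, held a high place among mRNAs in both preparations. It had 45.9, 38.8 and 45.4 CPM in synaptosomes, 205 to 759 CPM in control chambers (median 369) and 435, 324 and 529 CPM in KCL1, KCL1a and KCL4. Chambers and synaptosomes did not overlap in CPM, where 35.9% of all genes tested had all controls above all pools. In CPM of mRNAs control chambers and synaptosomes overlapped. Its place among mRNAs was 271 to 293 in synaptosomes, 58 to 217 in controls and 123 to 174 with KCl.

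Bcl11a, a zinc finger repressor of projection neurons, was low in synaptosomes, with 2.92, 3.48 and 4.44 CPM. It had 48.0 to 147 CPM in control chambers (median 89.3) and 56.6, 85.5 and 107 CPM with KCl, so the 2 preparations did not overlap in CPM. This was the same in CPM of mRNAs, at 24.2 to 39.5 against 49.4 to 204 in control chambers. Of all genes tested, 35.9% had all controls above all pools in CPM and 14% in CPM of mRNAs.

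Zbtb20, a zinc finger factor of CA1 pyramidal neurons that astrocytes also express, had the opposite balance. It had 115, 91.9 and 104 CPM in synaptosomes, where it stood at places 76 to 98 among mRNAs, and 160 to 570 CPM in control chambers (median 227), where it stood at places 124 to 806. KCl chambers had 160, 318 and 138 CPM. In CPM every control chamber was above every synaptosome pool, whereas in CPM of mRNAs every pool, at 834 to 951, was above every control chamber, at 223 to 586. Of all genes tested, 35.9% showed the former and 2.05% the latter. The control of 570 CPM was sc3, the library with the most astrocyte marker counts, and whether these account for its Zbtb20 was not tested.

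Prox1 was even across the synaptosome pools, with 7.20, 7.32 and 7.54 CPM, and uneven in the chambers. Controls ranged from 2.5 CPM in C11 (12 counts) and 3.16 CPM in C1 (4 counts) over a median of 11.9 to 50.6 CPM in C3, and KCl chambers had 33.8, 33.0 and 14.3 CPM. The coefficient of variation was 2.33% over the pools and 97.0% over the controls. C11 and C1, the lowest in Prox1, were the highest 2 controls in Neurod6. The next lowest in Prox1, sc3 at 6.81 CPM, was instead the lowest control in Neurod6 at 3.79 CPM. Ctrl3 had 11.5 CPM of Prox1 and 12.1 CPM of Neurod6. Prox1 counts were 0.0204 to 1.80 times those of Neurod6 over the controls and 17.4 times in KCL1a. The receptor genes took 0.827% of counts in C3, the highest control in Prox1, 1.21% in Ctrl4 and 1.01% in Ctrl3. In C11, C1 and sc3 they took 0.231%, 0.147% and 0.00646%. Over the 8 controls Spearman's rho with their share was 0.714 for Prox1, -0.524 for Neurod1 and -0.476 for Neurod2. The part of such background reads in the low chamber levels was not tested.

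Per kb of annotated exons, on the scale of mean CPM per kb, the order in control chambers was led by Mef2c at 44.4 ± 24.3 (SD, n = 8), followed by Neurod6 at 22.5 ± 18.3, Mef2d at 14.2 ± 3.61 and Tcf4 at 14 ± 6.27, and it ended with Prox1 at 2.44 ± 2.37. The ranges of Mef2c and Neurod6 overlapped, as did those of Mef2d and Tcf4. In synaptosomes Zbtb20 led at 3.37 ± 0.378 CPM per kb (n = 3), ahead of Neurod6 at 2.04 ± 0.205 and Mef2d at 1.82 ± 0.449, and Mef2c was 8th of the 10 at 0.747 ± 0.0683. Set among 76 transcription factors of neurons, Mef2c was 1st per kb in control and in KCl chambers and 31st in synaptosomes, while Zbtb20 was 19th, 34th and 2nd. Zbtb18, another of the 76, was close to Mef2c in control chambers at 40.1 CPM per kb. It had 62.7 with KCl, and 3.98 in synaptosomes, above Zbtb20. Per kb of the longest transcript, in place of all annotated exons, Tcf4 led in synaptosomes at 5.06 CPM per kb ahead of Zbtb20 at 3.85, with Mef2c 6th, and Tcf4 at 44.6 was ahead of Neurod6 at 22.5 in control chambers, where Mef2c was 1st as before. With KCl Mef2c had 96.3 ± 33.4 CPM per kb and Neurod6 32.8 ± 36.8.

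The make-up of the 10 genes' counts set the preparations apart. Zbtb20 gave 48.9% to 54.0% of them in synaptosomes, 7.14% to 26.3% in control chambers and 4.25% to 17.1% in KCl chambers. Mef2c gave 5.33% to 6.10%, 18.8% to 56.8% and 53.5% to 63.1%. Zbtb20 counts were 2.29 to 2.5 times those of Tcf4 in synaptosomes, 0.451 to 0.919 times in controls and 0.26 to 0.980 times with KCl. For each of these 3 measures every synaptosome pool lay outside the range of all 11 chamber libraries. Mef2c was chosen for its chamber level, so its share follows in part from that choice. The share of Zbtb20 does too, as Mef2c is in the sum, while the ratio of Zbtb20 to Tcf4 leaves Mef2c out. The 10 genes together made up 0.165% to 0.189% of mRNA counts in synaptosomes, 0.103% to 0.312% in controls and 0.273% to 0.434% in KCl chambers.

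**Figure D2:**
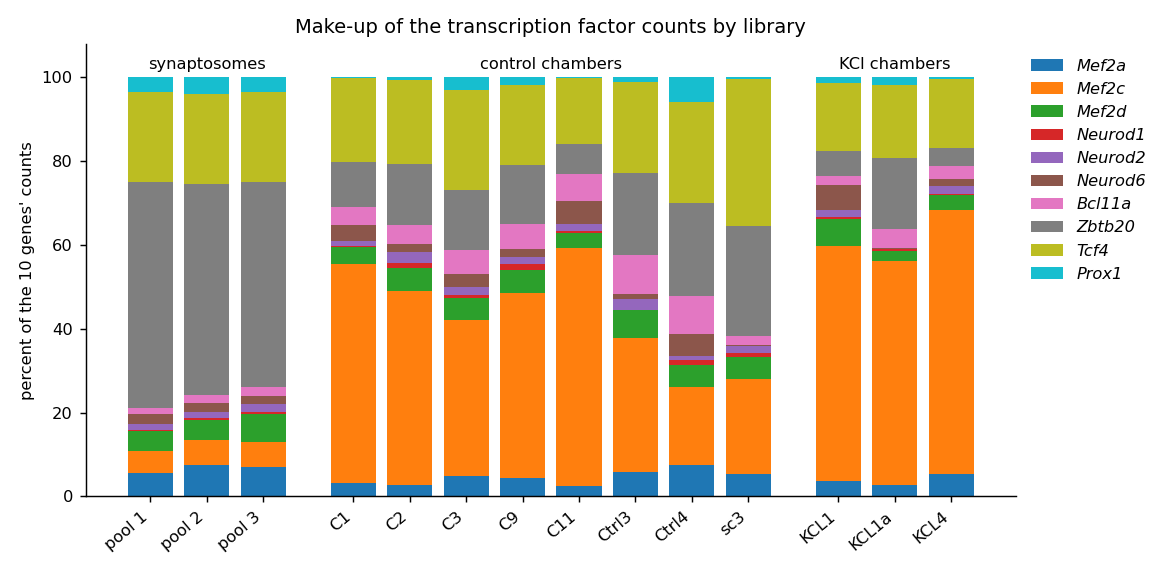
Share of each of the 10 genes in their summed counts (percent, stacked bars), by library. Zbtb20 fills 48.9% to 54.0% of the synaptosome bars, and Mef2c fills 18.8% to 56.8% of the control bars and 53.5% to 63.1% of the KCl bars.

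Which of these mRNAs differ between synaptosomes and neurites was tested with edgeR (quasi-likelihood, TMM scaling) on the counts of 29926 genes, where called means an adjusted p up to 0.05 together with a log2 fold change over 1 in size. Of the 9 members other than Mef2c, 2 were called, both higher in synaptosomes, against 2.27% of all genes called in that direction, 4.44% called higher in control chambers and 6.71% in all. Prox1 had a log2 fold change of -2.64 ± 0.640 (SE) in control chambers minus synaptosomes (adjusted p = 0.0218), and Zbtb20 of -2.31 ± 0.613 (adjusted p = 0.0326). Both had all 3 pools above all 8 controls on the TMM scale, as had 5.73% of all genes tested, and none of the 10 had all controls above all pools, as 7.84% of genes had. An unadjusted p under 0.05 was found for 3 of the 9, against 35.0% of all genes. Mef2a had -1.36 ± 0.520 (adjusted p = 0.0966) and Bcl11a 0.81 ± 0.530 (adjusted p = 0.218), and the other 5 lay between -0.77 and 0.27 with adjusted p of 0.250 to 0.842. Mef2c had 2.18 ± 0.791, given without a test. Of 12 astrocyte markers 4, and of 11 microglia markers 10, were also called higher in synaptosomes, and the part of such cells in the values of Zbtb20 and Prox1 was not tested.

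These directions rest on the scaling. In CPM, 6 of the 9 other than Mef2c had all controls above all pools (35.9% of all genes) and none the reverse (0.150%), while in CPM of mRNAs 1 of the 9 did, Bcl11a (14%), and Zbtb20 had the reverse (2.05%). The median log2 fold change of all genes was 3.21 with TMM, 4.47 with mRNA totals and 6.90 with totals of all genes. Mitochondrial ribosomal RNAs took 42.0% to 50.0% of counts in synaptosomes and 0.403% to 16.7% in control chambers. A single gene model, Gm42418, took 29.6% to 33.7% in synaptosomes and 0% in every control and KCl chamber library. The part of these RNAs and of Gm42418 in the medians and in the CPM was not tested. The median of the mRNAs tested was 1.19 with TMM, so that Mef2c lay above it and the other 9 below it. With totals of all genes the 9 had positive values, and 8 of them were called higher in control chambers, where 93.2% of all genes were called that way and 0.110% the other. Among these was Zbtb20 at 1.34 (adjusted p = 0.0158), while Prox1 had 1.46 (adjusted p = 0.142). With mRNA totals, which called 22.5% of all genes higher in chambers and 1.25% higher in synaptosomes, Zbtb20 kept its direction at -1.48 ± 0.393 (adjusted p = 0.0170), Bcl11a was called higher in chambers at 1.91 ± 0.479 (adjusted p = 0.0133), and Prox1 had -1.33 (adjusted p = 0.120). With TMM, the call of Zbtb20 was lost on leaving out any of pools 1 and 3, C1, C2, C3, C9 or C11 (adjusted p of 0.0509 to 0.0725), and without sc3 Mef2a at -1.94 (adjusted p = 0.00133) and Mef2d at -1.21 (adjusted p = 0.0450) were called too, higher in synaptosomes.

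**Figure D3:**
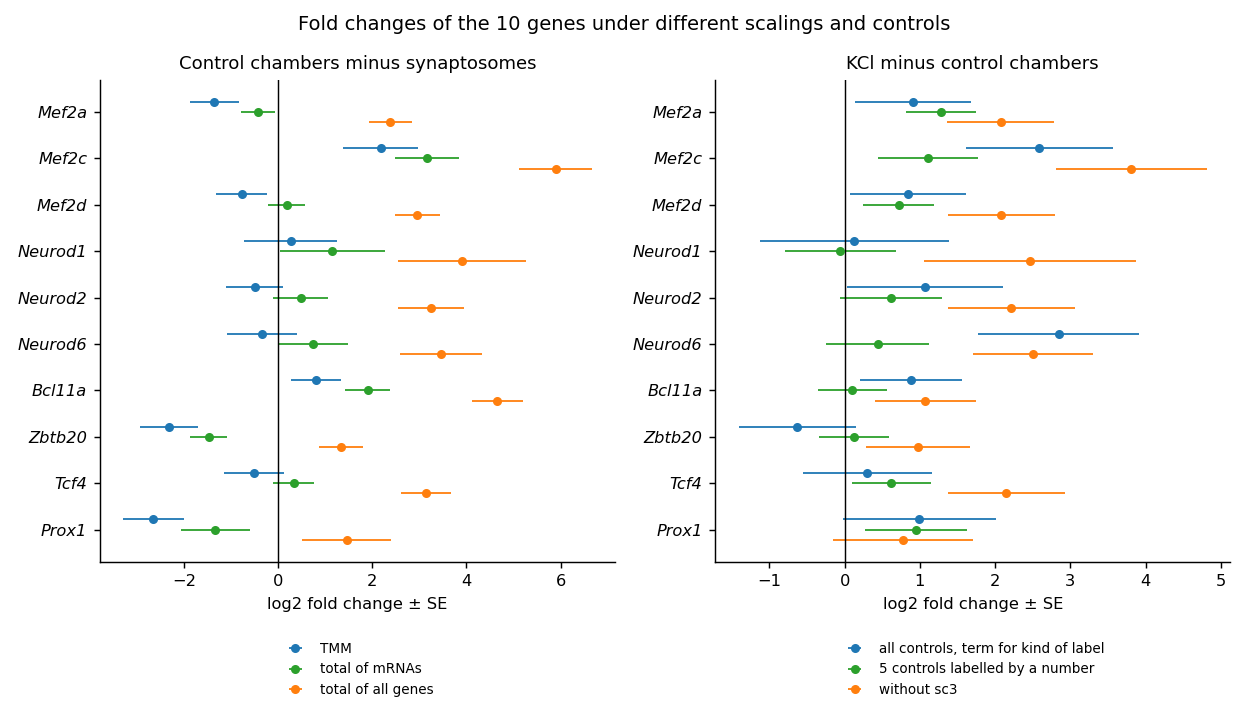
log2 fold changes of the 10 genes with their SE from edgeR, in control chambers minus synaptosomes under 3 scalings (left) and in KCl minus control chambers with 3 choices of controls (right). Zbtb20 moves from -2.31 with TMM to 1.34 with totals of all genes, and the KCl value of Mef2c moves from 1.11 against the controls labelled by a number to 3.81 without sc3.

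Whether depolarization changed these mRNAs in neurites was tested with edgeR over all 11 chamber libraries, with a term for labels that begin with a number (C1, C2, C3, C9, C11, of which C1 and C11 carry a letter after it) or with a word. All KCl labels begin with a word, so the difference is read against Ctrl3, Ctrl4 and sc3, and the other controls inform the spread. None of the 10 genes was called, against 1 of 28232 genes tested (0.00354%), the predicted gene Gm22009, while 1738 genes (6.16%) had an unadjusted p under 0.05. The largest values were those of Neurod6, at 2.85 ± 1.07 (log2, SE, unadjusted p = 0.0138, adjusted p = 0.714), and Mef2c, at 2.59 ± 0.980 (unadjusted p = 0.0145, adjusted p = 0.721). Neurod6 had 0.44 against the controls labelled by a number, 1.04 without the term for the kind of label and 1.93 without KCL1, and its ratio of mean CPM was 1.46. The other 8 lay between -0.63 for Zbtb20 and 1.07 for Neurod2, with adjusted p of 0.948 to 0.996. The median over all genes was -0.53 and that of the 10 was 0.89. An unadjusted p under 0.05 was thus found for 2 of the 10. In CPM, the KCl and control ranges overlapped for all 10, where 0.365% of genes lay apart with higher and 0.868% with lower values in KCl, and so they did on the TMM scale (0.563% and 0.298%).

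Whether Mef2c was called with KCl turned on the libraries and the tool. Against the 5 controls labelled by a number it was 1.11 ± 0.663 (adjusted p = 0.875), against the 3 labelled by a word alone 2.54 ± 1.19 (adjusted p = 1.00), and without sc3 it was 3.81 ± 1.01 (adjusted p = 0.0125), when Neurod6 was called as well at 2.5 ± 0.791 (adjusted p = 0.0437) and 1453 genes were called in all. Without both deep libraries, sc3 and KCL4, a choice made after seeing the data, as was that of the number labels, Mef2c had 3.31 ± 1.00 (adjusted p = 0.0699). DESeq2 with the same design called Mef2c alone of the 10 at 2.37 ± 0.616 (adjusted p = 0.00844) and 348 genes in all, and so did edgeR with a factor of unwanted variation, at 2.97 ± 0.501 (adjusted p = 0.00158) and 967 genes. Over all alternatives its adjusted p ran from 0.00158 to 1.00, and its value was positive in each.

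The nuclear noncoding RNAs moved with Mef2c across the control chambers. Ctrl4, Ctrl3 and sc3 had 0.456%, 0.770% and 1.02% of their counts in these RNAs and the least Mef2c, C3, C9 and C2 had 1.75%, 1.88% and 2.89%, and C11 and C1 had 4.10% and 4.37% and the most. Per 100 counts of the list, the controls thus held 2.61 to 4.80 counts of Mef2c, a coefficient of variation of 21.1% where that of the CPM was 54.8%. Of 1396 mRNAs at the cutoff in control chambers, 6 had a smaller coefficient for this ratio, whose median over those mRNAs was 80.9%. Mef2c also moved with the summed level of the 13 dendritic and synaptic mRNAs. Over the 8 controls Spearman's rho of Mef2c was 0.976 with the nuclear RNAs and 0.905 with the dendritic and synaptic mRNAs. Over all 11 chamber libraries the values were 0.655 and 0.918. The part of cell bodies, nuclei or neurites in these values was not tested.

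KCl libraries held more Mef2c for their nuclear RNA. KCL1, KCL1a and KCL4 had 6.64, 7.14 and 12.4 counts of Mef2c per 100 counts of the list, above all 8 controls. This held for 0.0956% of the genes tested (27 of 28232), and for no other of the 10, and the 0.202% that lay below all controls included none of them. The highest of the 27 in KCl chambers were Sptbn1, Kif5c, Kif1a, Mef2c and Calm3. Lower ones included Fos, which neuronal activity induces, and the ribosomal protein genes Rplp2 and Rps24. Pseudogenes such as Rpl3-ps1 and predicted genes such as Gm44053 were among the 27 as well. The ratio was chosen after the values had been seen and was given no test. Synaptosomes held 19.6 to 24.9 counts of Mef2c per 100 and were above all chambers for each of the 10 genes, as for 36.1% of all genes, Zbtb20 at 188 to 199 against at most 5.58 among the controls. The make-up of the list itself differed between the preparations. Malat1 and Rian had means of 18.7 and 12.6 CPM in synaptosomes, and 16931 and 349 CPM in control chambers.

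**Figure D4:**
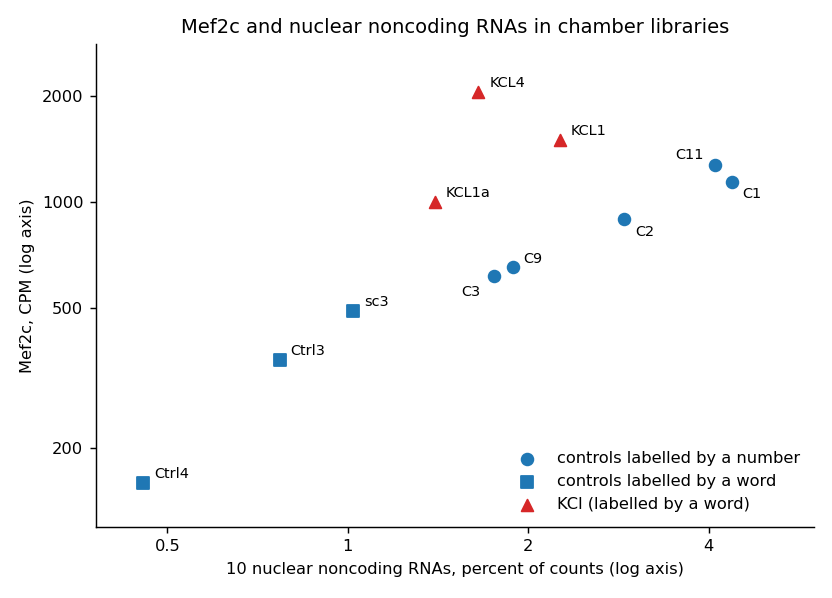
Mef2c (CPM, log axis) against the share of 10 nuclear noncoding RNAs in all counts (percent, log axis) in the 11 chamber libraries, with symbols for controls labelled by a number, controls labelled by a word and KCl. The 8 controls run from 159 CPM at 0.456% to 1273 CPM at 4.10%, and the 3 KCl libraries have 996 to 2046 CPM at 1.40% to 2.25%.

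By Spearman's rho over the 11 chamber libraries, the 5 mRNAs of 1423 candidates most like Mef2c were the calmodulin gene Calm3, the nucleolar protein gene Ncl, the CaM kinase II inhibitor gene Camk2n1 and the dendritic mRNA Ddn, each with 0.98, and the spectrin gene Sptbn1 with 0.97. The points share their library totals and differ widely in depth. None of the 10 members was among these 5.

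Genes related to the 10 gave the setting for these values. Between control chambers and synaptosomes, with TMM, 2 of 18 relatives tested were called, both higher in synaptosomes, Bcl11b, the paralog of Bcl11a, at -2.36 ± 0.489 (adjusted p = 0.00929) and Id4, an inhibitor of helix-loop-helix factors, at -2.61 ± 0.599 (adjusted p = 0.0172). Of 47 other neuronal transcription factors, Nr3c2, the mineralocorticoid receptor gene, at -3.13 ± 0.447 (adjusted p = 0.000624) and Nfia at -1.81 ± 0.480 (adjusted p = 0.0329) were called higher in synaptosomes, and Foxp2 at 3.13 ± 0.911 (adjusted p = 0.0451) higher in chambers. Their medians were 0.97 and -0.32, where that of the 10 was -0.50 and that of all genes 3.21.

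Of 14 MEF2 cofactors and regulators, Camk4, a calcium-dependent kinase, was called higher in synaptosomes at -1.88 ± 0.514 (adjusted p = 0.0372), and of 6 mRNAs that MEF2 is known to control in neurons, Pcdh17 was, at -2.51 ± 0.470 (adjusted p = 0.00476). None of 15 genes of the neuronal BAF complex, which remodels chromatin, was called. Of 13 dendritic and synaptic mRNAs 7 were called higher in synaptosomes, among them Camk2a at -3.83 ± 0.740 (adjusted p = 0.00576), while 7 of 9 nuclear noncoding RNAs were higher in chambers, Malat1 at 6.13 ± 1.53 (adjusted p = 0.0255). With KCl no gene of any of these lists was called, and the medians were 0.08 for the relatives, 0.97 for the other factors, 0.71 for the cofactors, 2.27 for the MEF2 targets and 2.31 for the dendritic mRNAs, against -0.53 for all genes. Homer1, a MEF2 target and scaffold of the postsynaptic density, had 2.67 ± 0.731 (adjusted p = 0.521).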

How the data were processed

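Total RNA of 3 synaptosome pools and 11 chamber libraries was used, and small RNA libraries were not. Per the labels and the methods of the study, the authors aligned reads to mm10 with STAR 2.5.2b and counted them per gene with featureCounts 1.5.1. The deposited tables give raw counts per gene and library, with no normalization, and CPM, which the authors made by scaling to the table's total without a term for gene length, although they name it TPM. CPM were recomputed here from the counts and differed from the deposited CPM by at most 4.07e-10. The 14 further columns, scaled values of the lncRNA tables, were not used. mRNAs are the gene identifiers that the lncRNA tables leave out. Symbols were found for 48349 of 48709 identifiers.

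Groups came from the sample labels. The columns C1 and C11 could each belong to either of 2 samples of the same group. Counts were tested with edgeR 4.0.16 (glmQLFit, TMM, filterByExpr) in R 4.3.3, adjusted over all genes tested (Benjamini-Hochberg), with SE taken as the log2 fold change divided by the square root of F. DESeq2 1.42.0, other scalings, filters, covariates and controls, as well as the omission of each library, served as alternatives. Intervals and limits (3 counts for a count of 0) cover counting error alone, as reads were counted without molecular identifiers. Lengths, loci and sequences came from GENCODE vM21, and no sequence of Tcf4 is shown. Named genes were the 10 members, at most 4 genes of a list by level with any that were called, and the 5 mRNAs most like Mef2c among those with a mean of at least 100 CPM in control chambers. The genes that lay apart in their ratio to nuclear RNA were named after their values were seen. The members and the lists were chosen with earlier results of these data known. Python 3.11.15 with numpy 2.4.6, pandas 2.3.3 and matplotlib 3.10.9 did the rest.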

Additional observations from a re-analysis of the deposited data

Results flagged for a closer look

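The control library sc3 stood apart from the other 7 controls in 3 of 12 sets of 8 values looked at (10 levels and 2 ratios), each time as the highest. It had 115 CPM of Mef2a where the next control had 78.6, 570 CPM of Zbtb20 where the next had 282, and 759 CPM of Tcf4 where the next had 433. The gap to the nearest library was 0.558, 0.701 and 0.588 of the whole range, above Dixon's 95% value of 0.526 for 8 samples, which chance passes in about 5% of sets. The same library had 48281227 counts, 97.3% of them in mRNAs, and 14974 CPM in astrocyte markers. The part of these in the 3 levels was not tested.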

How the results depend on the processing

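The number of genes called between KCl and control chambers was 1, and 0 with library totals, without the term for the kind of label, with the replicate block and against controls labelled by a word alone, 3 with mRNA totals, 7 against controls labelled by a number, 56 with a filter of at least 1 count, 348 with DESeq2, 418 without both deep libraries and 967 with a factor of unwanted variation. Leaving out each library gave 0 to 1453 genes and 0 to 2 members, and DESeq2 and the factor of unwanted variation 1 member each. Directions of members that were not called turned over in places: Zbtb20 had 0.13 against controls labelled by a number, 0.16 with the factor of unwanted variation, 1.08 without both deep libraries and -1.21 to 0.98 on leaving out a library, and Neurod1 had -0.056 against controls labelled by a number and -0.46 to 2.46 on leaving out a library. On leaving out a library Mef2a ran from -0.094 to 2.07 and Tcf4 from -0.36 to 2.15. The block by the number in the label called no member, and Mef2c had 3.06 with it. Deviations of same-numbered libraries from their group means correlated at -0.36 to 0.08 over 3 pairs, and 1 of the 3 KCl libraries correlated best with its own number, so the libraries share a number and no pairing was used.

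Between control chambers and synaptosomes 2008 genes were called, 7121 with mRNA totals, 9115 with DESeq2, 27927 with library totals and 583 to 9535 on leaving out a library. Of the members 2 were called, 8 with library totals and 1 to 4 on leaving out a library. With library totals the values were 2.39 for Mef2a, 2.96 for Mef2d, 3.24 for Neurod2, 3.46 for Neurod6, 1.34 for Zbtb20, 3.14 for Tcf4 and 1.46 for Prox1, against -1.36, -0.77, -0.49, -0.34, -2.31, -0.50 and -2.64 with TMM. With mRNA totals Mef2d had 0.18, Neurod2 0.48, Neurod6 0.74 and Tcf4 0.33. Leaving out a library gave -0.080 to 0.77 for Bcl11a and -0.66 to 0.34 for Neurod1. The cause of these changes was not tested.

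Members at the cutoff were 6 in synaptosomes and 5 in control chambers in CPM of mRNAs, 6 in control chambers at 50 CPM and 3 in KCl chambers where every library had to reach it. Leaving out any library left 1 and 3 at the cutoff in synaptosomes and control chambers, and 4 to 6 in KCl chambers, where 5 had been. Places per kb among the 10 moved under another length or none in 19 of 20 cases in synaptosomes, 17 of 20 in control chambers and 16 of 20 in KCl chambers. Depth limits Neurod1, Neurod2 and Prox1, which had as few as 0, 1 and 4 counts in a chamber library. The p-values rest on 3 libraries in the smaller group of each comparison.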
